A study of Homo sapiens with 18 samples.

Results

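The 10 transcripts described here encode nuclear-encoded proteins of the mitochondrial inner membrane and matrix: 8 subunits of the respiratory complexes and of ATP synthase, a citric acid cycle enzyme and a chaperonin. They were taken from the deposited tables by transcript identifier, among 26679 footprint entries and 98334 mRNA entries, and the length given for each had to equal its protein length less 1 shared trim. All 10 met this condition, with a trim of 20 codons in the footprint tables and of 19 in the mRNA tables, and all 10 passed the filter on low counts.

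Proteins of this class are made on cytosolic ribosomes from nuclear genes, most of them as precursors with a cleavable N-terminal presequence, and are then threaded through import channels in the mitochondrial membranes. They do not pass through the endoplasmic reticulum (ER), whose bound ribosomes make secreted proteins and most proteins of the cell's other membranes. At the ER, the ribosomal protein RPL26 is conjugated to UFM1, a modifier of the ubiquitin family, and UFSP2 is the protease that removes it.

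The cells were HEK293, derived from human embryonic kidney, in 3 genotypes: UFM1-KO (Cas9 with a guide against UFM1), UFSP2-KO (Cas9 with a guide against UFSP2) and wild-type (WT) cells, all grown in DMEM with serum. Each knockout was 1 line that the labels call clonal, so knockout and clone cannot be told apart. Per the labels' protocols, the membrane fraction was a Triton lysate of the pellet left after the cytosolic fraction had been taken off, and no step is described that parts ER from mitochondria in it. Ribosome footprints gave 12 libraries and whole-cell mRNA gave 6, with 2 per group (a and b). Nothing in the labels says that a and b were separate cultures, and all p-values measure only the spread between these libraries.

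Summed over all entries, footprint libraries held between 1393032 and 11388755 counts and mRNA libraries between 37451244 and 68675420. Entries with the same counts in every library each entered these sums, so they are not numbers of reads. Within groups the 2 libraries correlated at r between 0.953 and 0.982 across features, and none were identical. The tables name no genes, and no table used here pairs the transcripts of UFM1 and UFSP2 with their names, so neither the knockouts nor the cell line or fraction markers were checked in the counts.

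The members follow the path of electrons. NDUFS1 (ENST00000233190, chr2:206114817-206159444) encodes an iron-sulfur subunit of complex I, which takes electrons from NADH. SDHA (ENST00000264932, chr5:218320-268746) encodes the flavoprotein of succinate dehydrogenase, complex II, which serves both the citric acid cycle and the respiratory chain. Complex III is represented by its core proteins UQCRC1 (ENST00000203407, chr3:48599002-48609646) and UQCRC2 (ENST00000268379, chr16:21953361-21983660) and by CYC1 (ENST00000318911, chr8:144095076-144097525), the cytochrome that passes electrons on to cytochrome c. COX4I1 (ENST00000253452, chr16:85799695-85807068) encodes a nuclear-encoded subunit of cytochrome c oxidase, complex IV. ATP5F1A (ENST00000398752, chr18:46080248-46104227) and ATP5F1B (ENST00000262030, chr12:56638175-56645984) encode the alpha and beta subunits of the catalytic head of ATP synthase. In the matrix, CS (ENST00000351328, chr12:56271699-56300330) is citrate synthase, which brings acetyl groups into the citric acid cycle. HSPD1 (ENST00000388968, chr2:197486584-197500274) is the matrix chaperonin, which folds imported proteins. Gene coordinates are those of RefSeq on GRCh38.p14.

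The 10 messages together took under 1% of the summed counts of each library. Each member entered once, while the total held every entry, those with the same counts in every library included. The shares are thus not shares of reads. After merging such entries and filtering on low counts, UFM1-KO membrane a held 5946622 counts, against 8748060 before. The mRNA tables list more transcripts than the footprint tables, so shares are comparable within an assay only. In membrane footprints their share was 0.454% and 0.427% for UFM1-KO, 0.376% and 0.411% for UFSP2-KO, and 0.431% and 0.475% for WT. In cytosol footprints it was 0.460% and 0.457% for UFM1-KO, 0.334% and 0.311% for UFSP2-KO, and 0.416% and 0.393% for WT. In mRNA it was 0.178% and 0.186% for UFM1-KO, 0.156% and 0.158% for UFSP2-KO, and 0.182% and 0.164% for WT. As shares of summed counts, both UFSP2-KO libraries lay below both WT libraries in each of the 3 measurements. The sum is weighted to the members with most counts: in WT membrane b, HSPD1, ATP5F1B and ATP5F1A held 13734, 12501 and 11406 of 54042. Summed as CPM on the TMM scale, a different measure from these shares, the members overlapped between UFSP2-KO and WT in membrane footprints and mRNA. Only in cytosol footprints did both UFSP2-KO libraries stay below both WT libraries. The lower shares thus do not show a fall of the class in membrane footprints or mRNA. On the TMM scale UFSP2-KO lay above WT in all 3 measurements for NDUFS1 and UQCRC1. That statement does not carry over to their shares of summed mRNA counts. The exact 95% binomial interval of the smallest footprint library, WT cytosol a, was 0.405% to 0.427%; it covers counting error only. The libraries came from bulk cells, so fewer cells that carry a message and less of it in each cell cannot be told apart.

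Levels between members were compared as CPM (counts scaled to library size by the TMM method) per 1000 codons. COX4I1, ATP5F1B, ATP5F1A and HSPD1 were the highest 4 in all 9 groups, and NDUFS1 was the lowest in all 9. In WT membrane footprints COX4I1 stood at 4670.2 and 4107 CPM per 1000 codons in libraries a and b, and NDUFS1 at 156 and 146. In membrane footprints the highest mean was 27 times the lowest in UFM1-KO, 18.9 times in UFSP2-KO and 29 times in WT. In whole-cell mRNA the span was narrower, at 10.6 times in UFM1-KO, 8.64 times in UFSP2-KO and 10.3 times in WT.

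Among the subunits of the same assembly, the beta subunit ATP5F1B exceeded the alpha subunit ATP5F1A in all 18 libraries. Per codon, ATP5F1B over ATP5F1A ranged between 1.15 (WT membrane b) and 2.1 (WT cytosol a). The 2 subunits occur in equal number in the enzyme. RefSeq lists 7 pseudogenes named after ATP5F1A and 1 after ATP5F1B, and whether reads shared with such copies alter the ratio was not tested. The order of the lower members shifted between groups. The number of neighbours in the order whose libraries overlapped was 5 in UFM1-KO membrane, WT membrane and UFSP2-KO mRNA, 3 in UFSP2-KO cytosol and WT mRNA, 2 in UFM1-KO cytosol and UFSP2-KO membrane, 1 in UFM1-KO mRNA and 0 in WT cytosol. In WT membrane footprints the libraries of UQCRC1, CYC1, SDHA and UQCRC2 overlapped each with the next.

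**Figure D1:**
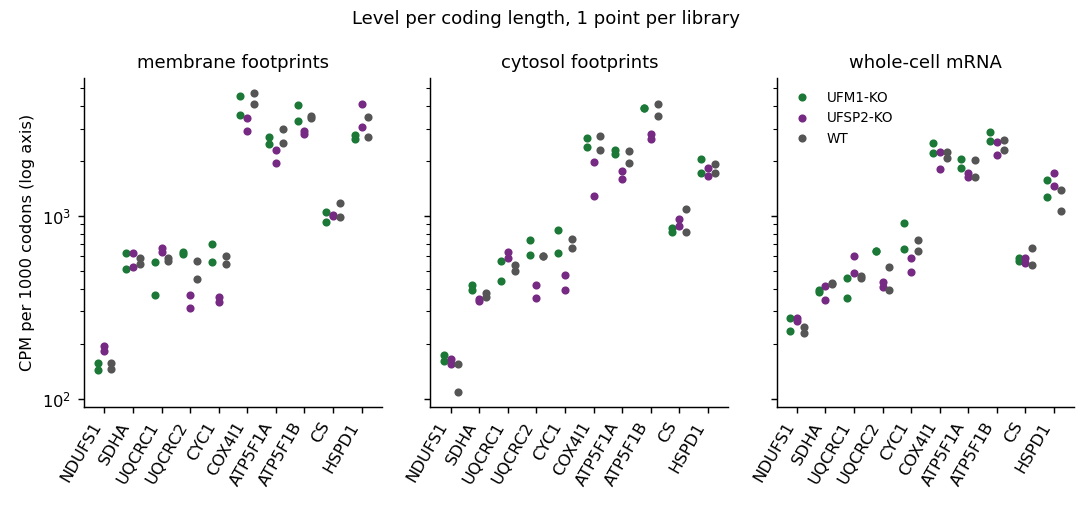
Level of each member per coding length (CPM per 1000 codons, log axis), 1 point per library, with UFM1-KO, UFSP2-KO and WT side by side, in membrane footprints (left), cytosol footprints (middle) and whole-cell mRNA (right). COX4I1, ATP5F1A, ATP5F1B and HSPD1 stand above the other 6 in every panel, and NDUFS1 stands lowest.

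The comparison of membrane with cytosol footprints asks how each message stood relative to the others in each fraction. COX4I1 and HSPD1 were higher in the membrane fraction in all 3 genotypes, SDHA in UFSP2-KO and WT, and none was called lower. HSPD1 had 1523 and 1462 CPM in UFM1-KO membrane libraries against 946 and 1126 in UFM1-KO cytosol libraries. In UFSP2-KO it had 1694 and 2253 CPM in membrane against 917 and 1009 in cytosol. In WT it had 1483 and 1917 CPM in membrane against 953 and 1059 in cytosol. Both membrane libraries lay above both cytosol libraries in each genotype. The log2 difference of HSPD1 was 0.53 ± 0.19 in UFM1-KO, 1.03 ± 0.19 in UFSP2-KO and 0.76 ± 0.19 in WT (SE from the fit, 2 libraries per group), with adjusted p of 0.0383, 6.66e-05 and 0.00216 in that order (quasi-likelihood test of edgeR, Benjamini-Hochberg adjustment over 11065 features).

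COX4I1, the complex IV subunit, had the largest membrane excess of the respiratory subunits. It had 677 and 531 CPM in UFM1-KO membrane libraries against 398 and 356 in UFM1-KO cytosol libraries. In UFSP2-KO the values were 508 and 434 CPM in membrane against 191 and 294 in cytosol, and in WT 696 and 612 CPM in membrane against 339.8 and 408 in cytosol. The groups did not overlap in any genotype, where 33.8%, 35.2% and 36% of features lay wholly higher in membrane in UFM1-KO, UFSP2-KO and WT. The log2 differences were 0.68 ± 0.22, 0.94 ± 0.22 and 0.80 ± 0.22 for UFM1-KO, UFSP2-KO and WT (edgeR, adjusted p 0.0159, 0.000911 and 0.00374).

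SDHA, the complex II flavoprotein, was higher in membrane by 0.74 ± 0.20 in UFSP2-KO and by 0.62 ± 0.20 in WT (log2, edgeR, adjusted p 0.00375 and 0.0137). Its libraries read 339 and 403 CPM in UFSP2-KO membrane against 225 and 221 in UFSP2-KO cytosol, and 352 and 377 CPM in WT membrane against 243 and 233 in WT cytosol. In UFM1-KO it read 329.8 and 402 CPM in membrane against 269 and 252 in cytosol, which did not overlap either, but its log2 difference of 0.49 ± 0.20 missed the threshold (edgeR, adjusted p 0.0646). That call depends on the setting: 2 of 11 alternatives made it, among them DESeq2-type size factors in edgeR (adjusted p 0.0485), with adjusted p between 0.0244 and 0.39 over the 11. The change of the SDHA ratio between genotypes was not called.

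The complex III members CYC1 and UQCRC2 had negative log2 differences in every genotype, none of them past the test. For CYC1 they were -0.21 ± 0.21 in UFM1-KO, -0.30 ± 0.22 in UFSP2-KO and -0.30 ± 0.21 in WT. For UQCRC2 they were -0.10 ± 0.20, -0.18 ± 0.21 and -0.24 ± 0.20 in the same order. The other members, NDUFS1, UQCRC1, ATP5F1A, ATP5F1B and CS, lay between -0.15 and 0.39 in the 3 genotypes, with ATP5F1A in WT the highest of them (adjusted p 0.1 in edgeR).

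The counts of members called stood near the background of all features. Of the 10 members, 2 were called higher in membrane in UFM1-KO, where 23% of features were; 3 in UFSP2-KO, where 24.8% were; and 3 in WT, where 25.3% were. None was called lower, against 5.87%, 12.2% and 12.2% of features in UFM1-KO, UFSP2-KO and WT. The median log2 difference of the members was 0.06 in UFM1-KO, 0.18 in UFSP2-KO and 0.17 in WT, beside 0.02, 0.01 and -0.02 over all features. The sizes were small beside those of the features most enriched in the membrane fraction: 2402, 2502 and 2535 features in UFM1-KO, UFSP2-KO and WT were called with more than 2-fold excess in membrane, with a median fold of 39, 37.2 and 43.8. HSPD1 in UFSP2-KO, at 2.05-fold, was the only member past 2-fold.

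Each fraction was scaled to its own total, so a difference says how a message stood relative to others in that fraction and not which share of it was there. With library size alone as the scale, the median of all features moved by -0.29 (log2) in UFM1-KO, -0.19 in UFSP2-KO and -0.14 in WT, and both UFM1-KO calls ended (COX4I1 0.39, adjusted p 0.0995; HSPD1 0.24, adjusted p 0.259, edgeR). The UFM1-KO call of HSPD1 held in only 4 of 11 alternatives: it also ended by DESeq2 (adjusted p 0.0786), with no filter on low counts in edgeR (0.0815) and without any 1 of its 4 libraries (0.0721 to 0.28). That of COX4I1 ended without membrane a (0.202) or cytosol b (0.156). In WT, HSPD1 lost its call without membrane b (adjusted p 0.0802), and SDHA without membrane b (0.107) or cytosol b (0.0794). In UFSP2-KO, SDHA lost its call without membrane b (0.0785) or cytosol b (0.0573), all in edgeR. RefSeq lists 22 pseudogenes named after HSPD1, 4 after SDHA and 2 after COX4I1, and reads shared with such copies could have been split in the counting; this was not tested.

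No change of the membrane-to-cytosol ratio was detected for any member in either knockout. The change of the log2 ratio lay between -0.31 (NDUFS1) and 0.14 (UQCRC2) for UFM1-KO less WT and between -0.05 (CS) and 0.28 (HSPD1) for UFSP2-KO less WT, with SEs of 0.24 to 0.31. None of the 10 was called by edgeR or DESeq2 in either comparison or between the knockouts, none had an unadjusted edgeR p under 0.05, and 0.00904%, 0.00904% and 0.0362% of all features were called for UFM1-KO less WT, UFSP2-KO less WT and UFM1-KO less UFSP2-KO. The HSPD1 ratio of UFM1-KO less that of UFSP2-KO was the largest, -0.51 ± 0.27 (adjusted p 0.784 in edgeR).

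**Figure D2:**
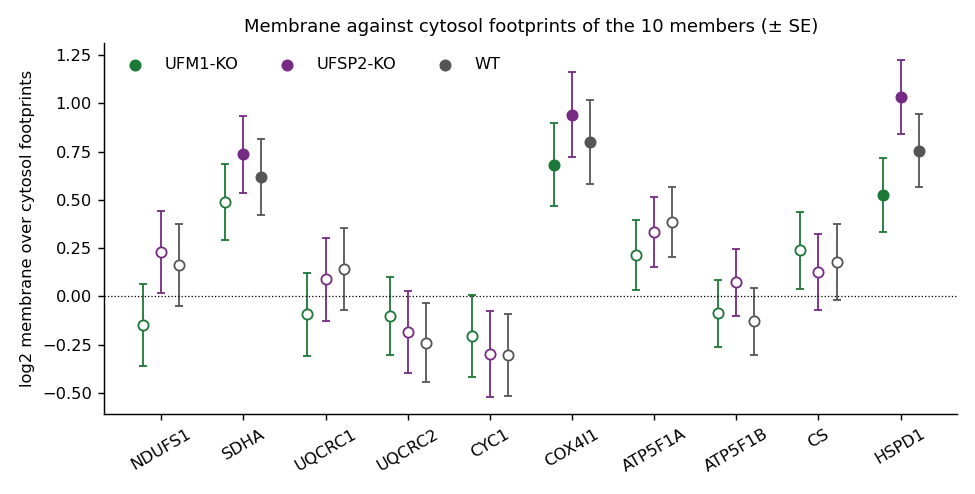
Log2 difference between membrane and cytosol footprints of each member in UFM1-KO, UFSP2-KO and WT, with SE bars from the edgeR fit over 2 libraries per group; filled points have an adjusted p under 0.05. COX4I1 and HSPD1 are filled in all 3 genotypes and SDHA in UFSP2-KO and WT, while CYC1 and UQCRC2 lie below 0 in all 3 with open points.

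At this depth UFM1-KO cells showed no detectable difference from WT in any member. No member was called by edgeR or DESeq2 in membrane footprints, cytosol footprints or mRNA, where 1.26%, 0.85% and 1.97% of features were called in either direction. Members with an unadjusted edgeR p under 0.05 numbered 0, 0 and 1, the last being UQCRC2 mRNA. It stood at 280.1 and 277 CPM in UFM1-KO against 228 and 172 in WT, a log2 difference of 0.48 ± 0.20 (edgeR, adjusted p 0.252). Footprint differences lay between -0.30 (UQCRC1, membrane) and 0.31 (NDUFS1, cytosol), each with an SE near 0.2, and mRNA differences between -0.19 (UQCRC1) and 0.48 (UQCRC2). The members' median was -0.04 in membrane and 0.04 in cytosol, beside 0.05 and 0.01 over all features.

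Libraries of the genotypes separated without overlap for few members in this comparison. In membrane footprints UQCRC2 was above WT and UQCRC1 below it in both UFM1-KO libraries, where 25.3% of features were wholly above and 19.4% wholly below. In cytosol footprints NDUFS1, UQCRC2 and SDHA lay wholly above WT, against 17.9% of features. In mRNA UQCRC2 lay wholly above WT and UQCRC1 and SDHA wholly below, against 22.6% and 26.2% of features.

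In membrane footprints CYC1, the complex III cytochrome, was called lower in UFSP2-KO than in WT in the main setting. CYC1 read 110.2 and 103 CPM in UFSP2-KO membrane libraries against 184 and 165 in WT membrane libraries, with no overlap. The log2 difference was -0.71 ± 0.22, or 0.61 of the WT level (edgeR, adjusted p 0.0336). It was the 1 member called, in a comparison in which 5.89% of features were called lower and 5.24% higher, or 11.1% in either direction. The count of members called thus stood near the share of all features. In cytosol footprints CYC1 read 145 and 119.5 CPM in UFSP2-KO against 203 and 227 in WT, again without overlap, and its log2 difference of -0.72 ± 0.22 missed the threshold (edgeR, adjusted p 0.0601). In mRNA it read 179.6 and 151 CPM in UFSP2-KO against 225 and 197 in WT, a log2 difference of -0.35 ± 0.21 (edgeR, adjusted p 0.334).

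The CYC1 call in membrane footprints rests on few libraries. It ended without any 1 of the 4 libraries compared, with log2 differences between -0.79 and -0.63 and adjusted p between 0.117 and 0.228 in edgeR, and DESeq2 gave an adjusted p of 0.107. Its membrane footprint difference less its mRNA difference was -0.40 ± 0.31 and was not called (edgeR, adjusted p 0.736).

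UQCRC2, a core protein of the same complex, read 136 and 161 CPM in UFSP2-KO membrane libraries against 195 and 245 in WT membrane libraries. In cytosol it read 154 and 182 CPM in UFSP2-KO against 261 and 260.0 in WT. UFSP2-KO lay below WT in both fractions without overlap, but neither difference passed, at -0.57 ± 0.21 in membrane and -0.62 ± 0.21 in cytosol (edgeR, adjusted p 0.0753 and 0.0898). In membrane it passed in 3 of 11 alternatives, among them the fit of only the groups compared (edgeR, adjusted p 0.00968) and library size alone as the scale (0.0342), with adjusted p between 0.00968 and 0.473 over the 11. Its mRNA overlapped, with 177 and 189 CPM in UFSP2-KO against 228 and 172 in WT.

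The third complex III member, the core protein UQCRC1, and the complex I subunit NDUFS1 lay on the other side. UQCRC1 read 306 and 290.4 CPM in UFSP2-KO membrane libraries against 269.7 and 260.0 in WT membrane libraries. In cytosol it read 292 and 269.9 CPM in UFSP2-KO against 231 and 248 in WT, and in mRNA 278 and 226 CPM in UFSP2-KO against 215 and 212 in WT. UFSP2-KO lay above WT without overlap in all 3 measurements, and none of the log2 differences passed (0.17, 0.22 and 0.24, each with an SE near 0.2).

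NDUFS1 had the highest membrane difference of the members, 0.32 ± 0.21 (edgeR, adjusted p 0.34). It read 129.5 and 137 CPM in UFSP2-KO membrane libraries against 110.3 and 103 in WT membrane libraries. In cytosol it read 110.0 and 117 CPM in UFSP2-KO against 76.9 and 109 in WT, and in mRNA 195 and 189 CPM in UFSP2-KO against 175 and 162 in WT. Like UQCRC1, it lay above WT without overlap in all 3 measurements, and its differences in cytosol and mRNA, 0.26 ± 0.22 and 0.19 ± 0.20, did not pass either. HSPD1, the chaperonin, lay above WT without overlap in mRNA alone, with 803 and 945 CPM in UFSP2-KO against 764 and 590.0 in WT, a log2 difference of 0.37 ± 0.21 (edgeR, adjusted p 0.281); its footprint differences were 0.21 ± 0.19 in membrane and -0.06 ± 0.19 in cytosol, with overlap in both. SDHA lay below WT without overlap in cytosol and mRNA, by differences of -0.09 ± 0.20 and -0.16 ± 0.19, and overlapped in membrane at 0.03 ± 0.19; none passed.

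COX4I1 and the ATP synthase subunits also lay below WT in both fractions of UFSP2-KO without overlap and without passing the test. COX4I1 differed by -0.47 ± 0.21 in membrane and -0.61 ± 0.22 in cytosol (edgeR, adjusted p 0.16 and 0.113). ATP5F1B read 1427 and 1481 CPM in UFSP2-KO membrane against 1796 and 1745 in WT membrane, and 1432 and 1335 CPM in UFSP2-KO cytosol against 2078 and 1796 in WT cytosol, log2 differences of -0.28 ± 0.17 and -0.49 ± 0.17 (adjusted p 0.314 and 0.117 in edgeR). ATP5F1A differed by -0.38 ± 0.18 and -0.33 ± 0.18. CS, the citrate synthase, differed by -0.11 ± 0.20 in membrane and -0.06 ± 0.20 in cytosol. In mRNA these 4 lay between -0.13 (ATP5F1A) and -0.06 (ATP5F1B).

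In all, 5 members lay wholly below WT and 2 wholly above it in UFSP2-KO membrane footprints, where 29% and 29.7% of features did. In cytosol footprints 6 lay wholly below and 2 wholly above, where 22.6% and 21.9% of features did, yet none was called by edgeR or DESeq2, where 3.99% of features were called by edgeR and 4 members had an unadjusted p under 0.05. In mRNA 2 lay wholly below and 3 wholly above, where 28.9% and 24.5% of features did, none was called by either tool or had an unadjusted edgeR p under 0.05, and 7.18% of features were called. The members' median log2 difference was -0.20 in membrane, -0.21 in cytosol and -0.09 in mRNA, beside 0.01, 0.02 and -0.01 over all features.

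**Figure D3:**
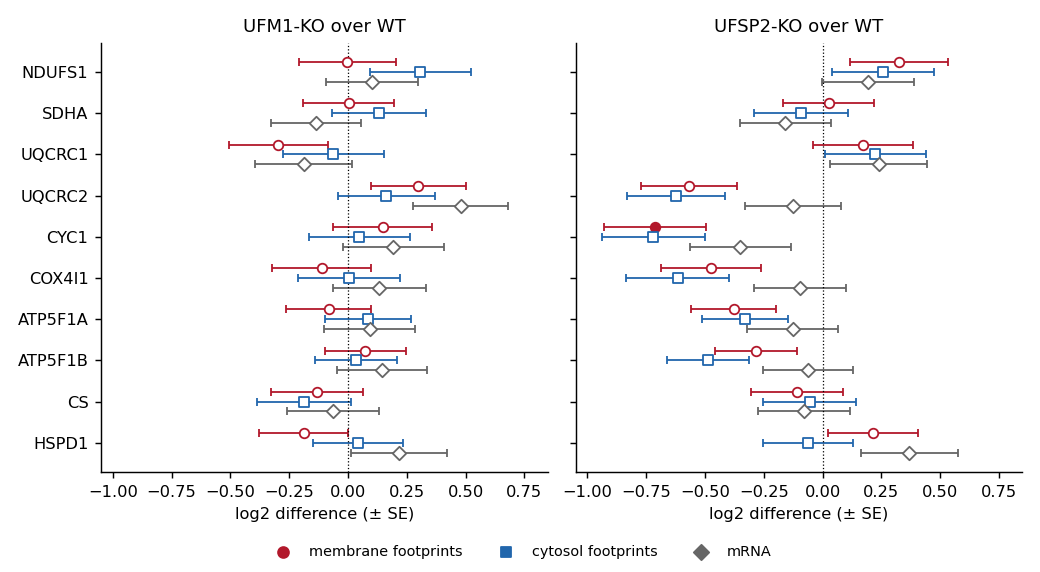
Log2 difference of each member from WT in UFM1-KO (left) and UFSP2-KO (right), for membrane footprints, cytosol footprints and whole-cell mRNA, with SE bars from the edgeR fits; filled symbols have an adjusted p under 0.05. Only CYC1 in UFSP2-KO membrane footprints is filled (-0.71), and in UFSP2-KO the footprint symbols of UQCRC2, CYC1, COX4I1 and both ATP synthase subunits lie left of 0.

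The knockouts were also compared with each other, since they are aimed at opposite ends of the UFM1 cycle, the modifier itself and the protease that takes it off. CYC1 and UQCRC2 were higher in UFM1-KO in both fractions. In membrane footprints CYC1 read 214 and 171 CPM in UFM1-KO against 110.2 and 103 in UFSP2-KO, a log2 difference of 0.86 ± 0.22 (1.81-fold, edgeR, adjusted p 0.00556). UQCRC2 read 268 and 275 CPM in UFM1-KO against 136 and 161 in UFSP2-KO, a log2 difference of 0.87 ± 0.21 (1.82-fold, edgeR, adjusted p 0.00358). Neither gene's libraries overlapped, as for 33.8% of features that lay wholly higher in UFM1-KO. These were the 2 members called, where 11.2% of features were called higher and 10.2% lower, or 21.4% in either direction. The count of members called thus stood near the share of all features.

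In cytosol footprints CYC1 read 256 and 191 CPM in UFM1-KO against 145 and 119.5 in UFSP2-KO, a log2 difference of 0.77 ± 0.22 (edgeR, adjusted p 0.0216). UQCRC2 read 264 and 318 CPM in UFM1-KO against 154 and 182 in UFSP2-KO, a log2 difference of 0.79 ± 0.21 (edgeR, adjusted p 0.0133). Again these 2 of 10 members were called, where 5.83% of features were called higher and 6.2% lower, or 12% in either direction. Their libraries again did not overlap, as for 25.3% of features. ATP5F1B and COX4I1 came next, at 0.52 ± 0.17 and 0.62 ± 0.22 (edgeR, adjusted p 0.0509 and 0.0636). Of the other members, ATP5F1A differed by 0.29 ± 0.18 in membrane and 0.41 ± 0.18 in cytosol, UQCRC1 by -0.47 ± 0.21 and -0.29 ± 0.22, HSPD1 by -0.40 ± 0.19 and 0.10 ± 0.19 and NDUFS1 by -0.33 ± 0.21 and 0.05 ± 0.22. SDHA and CS lay between -0.13 (CS, cytosol) and 0.22 (SDHA, cytosol), and none of these passed.

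In mRNA the libraries of both genes were also apart, as for 29.7% of features. CYC1 read 201 and 281 CPM in UFM1-KO against 179.6 and 151 in UFSP2-KO, and UQCRC2 read 280.1 and 277 CPM in UFM1-KO against 177 and 189 in UFSP2-KO. The log2 differences were 0.54 ± 0.22 and 0.61 ± 0.20 and missed the threshold (edgeR, adjusted p 0.0965 and 0.053). No member was called in mRNA by edgeR, where 15.9% of features were called and 2 members had an unadjusted p under 0.05; DESeq2 called UQCRC2 (adjusted p 0.0381). The other members lay between -0.43 (UQCRC1) and 0.23 (COX4I1) in mRNA (log2).

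Some of these calls depend on single libraries. In membrane footprints CYC1 lost its call without UFM1-KO a (adjusted p 0.104) or UFSP2-KO b (0.0776), and UQCRC2 without UFSP2-KO a (0.08). In cytosol footprints CYC1 lost it without UFM1-KO a (0.207) or UFSP2-KO b (0.288), where its log2 difference was 0.55 and 0.50, and by DESeq2 (0.0554). UQCRC2 lost it in cytosol without UFM1-KO b (0.157), UFSP2-KO a (0.0953) or UFSP2-KO b (0.062). This comparison shares its UFSP2-KO libraries with that of UFSP2-KO and WT, so the CYC1 results of the 2 comparisons are not independent.

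Ratios of complex III members within a library do not depend on how libraries are scaled. They were taken after these values had been seen and are given without a test. CYC1 over UQCRC1, per codon, was 1.25 and 1.51 in UFM1-KO membrane footprints, 0.543 and 0.535 in UFSP2-KO and 1.03 and 0.959 in WT. In cytosol footprints it was 1.49 and 1.43 for UFM1-KO, 0.747 and 0.668 for UFSP2-KO and 1.33 and 1.38 for WT. In mRNA it was 1.85 and 2.0 for UFM1-KO, 0.973 and 1.01 for UFSP2-KO and 1.57 and 1.40 for WT. The order UFM1-KO, WT, UFSP2-KO held in all 3 measurements without overlap between genotypes.

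UQCRC2 over UQCRC1 was 1.11 and 1.71 in UFM1-KO membrane footprints, 0.473 and 0.588 in UFSP2-KO and 0.769 and 0.999 in WT. In cytosol footprints it was 1.08 and 1.68 for UFM1-KO, 0.562 and 0.716 for UFSP2-KO and 1.20 and 1.11 for WT. In mRNA it was 1.82 and 1.39 for UFM1-KO, 0.675 and 0.892 for UFSP2-KO and 1.13 and 0.860 for WT. UFSP2-KO lay lowest in both fractions, while UFM1-KO and WT overlapped in cytosol footprints and UFSP2-KO and WT overlapped in mRNA.

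**Figure D4:**
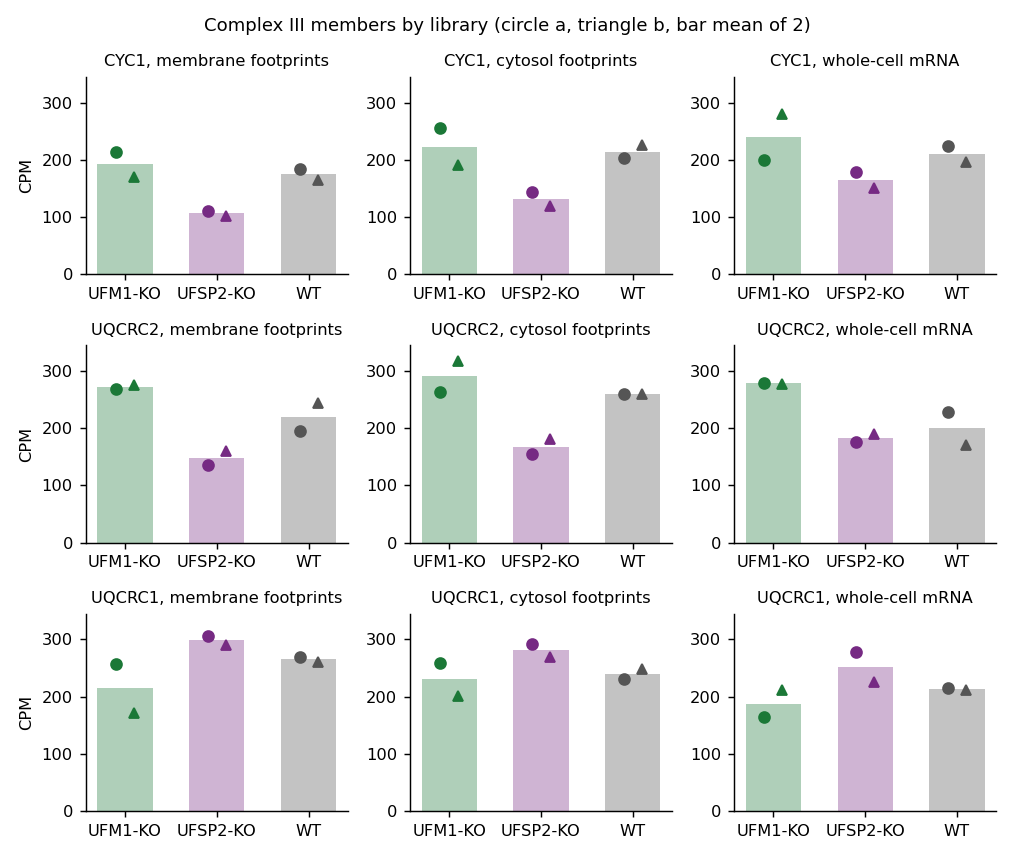
CPM of the complex III members CYC1, UQCRC2 and UQCRC1 (rows) in membrane footprints, cytosol footprints and whole-cell mRNA (columns) for UFM1-KO, UFSP2-KO and WT; circles and triangles are libraries a and b and bars are their means. CYC1 and UQCRC2 are lowest in UFSP2-KO footprints of both fractions, and UQCRC1 is highest there.

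Footprints of each fraction were set against whole-cell mRNA as a log2 ratio less the median ratio of 12629 features. The ratio was the mean log2 CPM of footprints less that of mRNA, with CPM scaled over all 18 libraries together and a small constant added. No floor was set on footprints, so a feature could enter through its mRNA counts. In the model of footprints alone, 11065 features passed the filter. Features with few footprints have low ratios, and how far they lower the median and raise the members' places was not tested. Such a ratio holds both the ribosomes on a message and how much of the message was in the fraction, and the 2 cannot be told apart. All 10 members stood above that median in every fraction and genotype except NDUFS1 in UFM1-KO membrane footprints (-0.01 ± 0.14, SE over libraries). The members' median was 1.17 in UFM1-KO, 1.15 in UFSP2-KO and 1.24 in WT membrane footprints, and 1.34, 1.21 and 1.43 in cytosol footprints in the same order. These are described without a test.

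Each matrix protein had the highest ratio in 1 fraction, but not in both. In UFSP2-KO cytosol footprints HSPD1 (1.41) stood below ATP5F1B (1.48) and UQCRC1 (1.43), and in WT membrane footprints CS (1.63) stood below COX4I1 (1.80). HSPD1 had the highest ratio in membrane footprints, 1.68 ± 0.14 in UFM1-KO, 2.0 ± 0.22 in UFSP2-KO and 2.11 ± 0.27 in WT. CS had the highest in cytosol footprints, 1.74 ± 0.02 in UFM1-KO, 1.95 ± 0.08 in UFSP2-KO and 1.87 ± 0.26 in WT, above at least 93.3% of features. ATP5F1B lay within an SE of CS there in UFM1-KO (1.72 ± 0.10) and WT (1.85 ± 0.14). NDUFS1 was the lowest in cytosol footprints, at 0.59 ± 0.14, 0.51 ± 0.04 and 0.34 ± 0.27. In membrane footprints NDUFS1 was lowest in UFM1-KO (-0.01) and WT (0.13), but in UFSP2-KO it read 0.31, above CYC1. CYC1 was low there as well, at 0.44 ± 0.29 in UFM1-KO, 0.21 ± 0.15 in UFSP2-KO and 0.52 ± 0.13 in WT.

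Knockout changes of footprints were then tested against those of mRNA in 1 model over all 18 libraries. No member was called by edgeR or DESeq2, and none had an unadjusted edgeR p under 0.05, in either fraction or knockout; 0% of 12629 features were called in both fractions of UFM1-KO, 0.0792% in membrane footprints of UFSP2-KO and 0.0158% in its cytosol footprints. The lowest members were UQCRC2 in UFSP2-KO membrane footprints, -0.48 ± 0.28, and COX4I1 in UFSP2-KO cytosol footprints, -0.47 ± 0.30. The highest was SDHA in UFM1-KO cytosol footprints, 0.26 ± 0.27. With SEs of 0.26 to 0.31, differences of this size were not detectable at 2 libraries per group.

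**Figure D5:**
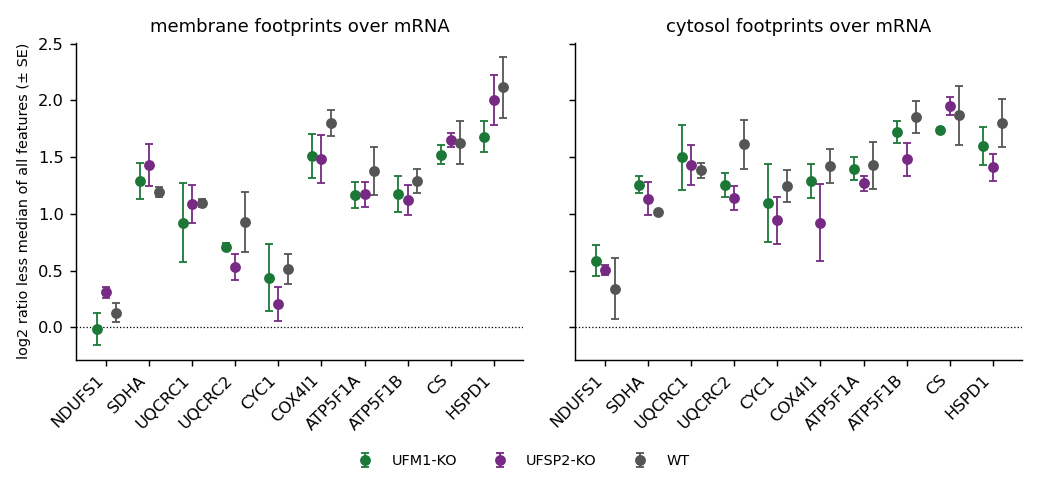
Log2 ratio of footprint to mRNA CPM less the median of all features, for membrane (left) and cytosol (right) footprints of each member in UFM1-KO, UFSP2-KO and WT, with SE bars over 2 libraries of each assay. Every point lies above 0 except NDUFS1 in UFM1-KO membrane footprints (-0.01), and HSPD1 in membrane and CS in cytosol are highest.

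The members varied together over the 9 groups to unequal degrees. The log2 group means of each were standardised and averaged over the 10, and Pearson's r of each member with that average was 0.99 for ATP5F1A, 0.96 for CS and for ATP5F1B, 0.52 for CYC1 and -0.14 for NDUFS1; each member is itself part of the average, and the groups share genotypes and assays. Of 7719 features with at least 10 CPM on average in both assays, the 2 outside the class that followed it most closely were ENST00000261366 (r = 0.995) and ENST00000216281 (r = 0.989). The 9 groups mix footprints and mRNA, so every r also holds the difference in level between the assays. How much of r comes from it was not tested.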

How the data were processed

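Ribosome footprints of membrane and cytosol fractions (12 libraries) and whole-cell mRNA (6 libraries) were analysed from deposited tables of raw counts per versioned Ensembl transcript; the deposited second column was read as coding length in codons, since it equals each member's protein length less a fixed trim. The submitters' processing notes name TopHat2 2.1.1 and GRCh38; which program counted the reads, and on which annotation, is not given in the sources used here. Some entries carried the same counts in every library of an assay, and these were merged to 1 feature (14377 footprint and 15444 mRNA features). The features of ATP5F1A, NDUFS1 and HSPD1 held 2 entries each and that of COX4I1 held 3. The assays were matched by transcript identifier and length.

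In R 4.3.3, counts were tested with edgeR 4.0.16 (glmQLFit and glmQLFTest, 2-sided, TMM scaling, filterByExpr with a minimum count of 10, 1 coefficient per group) in 1 model over all footprint libraries (11065 features), 1 over all mRNA libraries (13900) and 1 over all 18 (12629), with Benjamini-Hochberg adjustment over all features and a threshold of 0.05. DESeq2 1.42.0, 2 other scalings, no filter, no merging, only the groups compared, the replicate letter as a block and each library left out were tried. The scripts were tested on simulated data. CPM are counts scaled to TMM-adjusted library size. Read counts without molecular identifiers are not independent molecules.

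The rule for named genes was all 10 members in every comparison; where a comparison gives a range, only its ends are named. The members and gene lists were chosen with earlier results of these data known. The pathway and fraction marker lists need gene names for other transcripts and were not tested. Protein sequences were not used here.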

Additional observations from a re-analysis of the deposited data

How the results depend on the processing

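Of 2370 alternative values of members, 2139 kept direction and side of the threshold, 31 passed only in the alternative and 29 only in the main setting. A further 171, none called, changed sign, the largest main size being 0.26 (log2), and no called value reversed. Counts of members called kept within 1.5 times in 203 of 237 alternatives. The others, each set beside its main count, were as follows, and the cause was not tested except that a library left out leaves fewer samples. For UFSP2-KO against WT membrane footprints (1 member called), DESeq2 gave 0, library size alone 2, the fit of only the groups compared 4 (ATP5F1A, UQCRC2 and COX4I1 gained), and each library left out 0 (lowest and highest 0). For UFM1-KO against UFSP2-KO membrane footprints (2), only the groups compared gave 4 (UQCRC1 and HSPD1 gained) and libraries left out 1 to 2. For the same in cytosol footprints (2), DESeq2 gave 1, DESeq2-type size factors in edgeR 4 (ATP5F1B and COX4I1 gained), library size alone 5 (these and ATP5F1A gained) and libraries left out 1. In mRNA (0), DESeq2, library size alone, no filter and no merging each gave 1, UQCRC2. For membrane against cytosol footprints in UFM1-KO (2), DESeq2 gave 1, library size alone 0, no filter 1 and libraries left out 0 to 1; in WT (3), libraries left out gave 1 to 3. A lone library was assumed to vary like the other groups.

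The letters a and b are not said to pair libraries. Between groups, the differences of b from a correlated at 0.05 to 0.31 in footprints and at -0.69 to 0.06 in mRNA. With the letter as a replicate block, 2 members were called for UFSP2-KO against WT in membrane footprints, with UQCRC2 gained (edgeR, adjusted p 0.0211), and 4 in cytosol footprints, UQCRC2 (0.0236), CYC1 (0.0108), COX4I1 and ATP5F1B. For UFM1-KO against UFSP2-KO 4 were called in membrane footprints (UQCRC1 and HSPD1 gained) and 5 in cytosol footprints (ATP5F1A, ATP5F1B and COX4I1 gained). In membrane against cytosol footprints SDHA was gained in UFM1-KO (0.0244) and ATP5F1A in WT, and the other counts stayed within 1.5 times.

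The smallest member difference called was 0.53 (log2; HSPD1), while one of -0.72 (CYC1 in UFSP2-KO cytosol footprints) was not. SEs were 0.17 to 0.22 within an assay and 0.24 to 0.31 for changes of a ratio. Library size alone moved the median of all features most in membrane against cytosol footprints of UFM1-KO, by -0.29 (log2).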
